A study of Caenorhabditis elegans with 2 samples.

Results

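The Hsp70 family genes of Caenorhabditis elegans were examined in anti-GFP chromatin immunoprecipitation sequencing (ChIP-seq) peaks of SNPC-1.2, a protein of SNAPc, the complex that activates small nuclear RNA genes. The genes are F44E5.4, F44E5.5, hsp-70, hsp-1, hsp-3, hsp-4 and hsp-6, which makes 7 of the 19973 nuclear protein-coding genes of the annotation. They were chosen by name as members of the family, and because F44E5.4 and F44E5.5 share a strong peak. The summit positions and signal values of the peaks were therefore the values that selected them, and these are given as a description with no test. The larvae were whole L4 animals at 48 hours, synchronised by bleaching and starvation at L1, of strain RW12251, in which CRISPR was used to insert TY1, EGFP and 3xFLAG into snpc-1.2 on chromosome III (st12251). There was 1 group with 2 biological replicates, and every animal carried the tag. No untagged or control library was analysed here, the labels name no heat treatment, and a whole animal mixes all its tissues. The whole-series list of peaks, made from both replicates, held 2829 peaks on nuclear chromosomes, replicate 1's own list 1411 and replicate 2's own list 1737. Read depth is unknown, since none of the labels or lists gives read numbers.

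Hsp70 proteins are ATP-driven chaperones that bind exposed stretches of unfolded proteins. J-domain proteins deliver clients to them and stimulate their ATPase, and nucleotide exchange factors let the client go. Some family genes are expressed in all conditions and others are induced by heat, when the transcription factor HSF-1 binds heat shock elements, which are inverted repeats of the unit GAA and its reverse complement TTC. SNAPc is known for binding snRNA promoters, which RNA polymerase II or III transcribes. Of the 7 genes, F44E5.4, F44E5.5 and hsp-70 are the heat-inducible cytosolic genes, hsp-1 is the constitutive cytosolic gene, hsp-3 and hsp-4 encode the endoplasmic reticulum protein BiP, and hsp-6 encodes the mitochondrial protein.

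F44E5.4 and F44E5.5 lie head to head on chromosome II, and their peak lies between them. F44E5.4 (WBGene00009691) runs on the minus strand from 11757107 to 11759311 and F44E5.5 (WBGene00009692) on the plus strand from 11759662 to 11761861, so the 5' ends are 351 bp apart (assembly ce11, the same coordinates as WBcel235). The peak of the whole-series list began at the first base of F44E5.4 and ended at 11759604, a width of 294 bp. Its bases upstream of F44E5.4 are shown because they hold the summit and a series of heat shock elements. They are the 293 bases at chrII:11759312-11759604, plus strand, WBcel235 from RefSeq, with the heat shock elements in capitals:
peak between F44E5.4 and F44E5.5: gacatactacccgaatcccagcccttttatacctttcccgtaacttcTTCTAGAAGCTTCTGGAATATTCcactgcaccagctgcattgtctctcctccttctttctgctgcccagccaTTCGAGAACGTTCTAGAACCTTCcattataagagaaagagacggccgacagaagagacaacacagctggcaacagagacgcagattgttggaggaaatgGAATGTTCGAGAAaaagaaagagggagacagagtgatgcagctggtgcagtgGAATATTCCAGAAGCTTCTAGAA

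The sequences just upstream of each gene are shown to compare the pair. They are chrII:11759312-11759401 on the minus strand for F44E5.4 and chrII:11759562-11759651 on the plus strand for F44E5.5, with a TATAAA match in capitals:
F44E5.4 upstream: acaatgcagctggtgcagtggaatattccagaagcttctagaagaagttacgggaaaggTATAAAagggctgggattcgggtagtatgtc
F44E5.5 upstream: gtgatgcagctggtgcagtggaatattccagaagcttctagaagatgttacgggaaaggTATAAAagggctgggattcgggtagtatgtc
Aligned on TATAAA, 86 of the 90 bases were identical. The TATAAA match lay at -31 to -26 from the F44E5.4 5' end and at -41 to -36 from the F44E5.5 5' end, where negative positions are upstream.

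Neither the highest thresholded peak of hsp-1 nor the peak of hsp-4 held a heat shock element. The 293 bases upstream of each gene's 5' end held 2 two-unit elements (defined below). The summits of these peaks are shown as a contrast. They are chrIV:17278484-17278544 on the plus strand, upstream of hsp-1, and chrII:7353163-7353223 on the minus strand, upstream of hsp-4, each with the summit base in a capital:
hsp-1 summit at -445: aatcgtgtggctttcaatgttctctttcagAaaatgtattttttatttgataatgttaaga
hsp-4 summit at -548: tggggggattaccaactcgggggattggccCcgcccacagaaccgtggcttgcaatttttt

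The peak of the pair was high in both replicates. Its signal value, the peak caller's own measure with no scale stated, was 259 in replicate 1 and 282 in replicate 2, a mean of 270 ± 16.3 (SD, n = 2). Each list may have its own scale, so ranks were compared within a list. Here and below, means, SDs and ratios across the replicates' lists also hold any difference of scale and are descriptions only. In the whole-series list the pair's signal value was 539. That value was 5.02 times the list's median of 107 and ranked 90 of 2829, with 96.8% of the peaks lower. In the replicates' own lists the peak ranked 89 of 1411 in replicate 1, with 93.7% lower, and 95 of 1737 in replicate 2, with 94.5% lower. The replicates thus placed it at about the same height, and the ratio of replicate 2 to replicate 1, 1.09, equalled the median ratio of 1.09 over the 890 whole-series peaks with 1 call in each replicate's list (interquartile range 0.949 to 1.25). Its irreproducible discovery rate (IDR, the rate at which calls of that rank are not repeated) was 1.00e-05, the lowest value the deposited lists can hold.

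The summit lay upstream of both genes, nearer to F44E5.4 in most lists. In the whole-series list, the conservative list (a shorter list of both replicates) and replicate 1's list it was at 11759449, which is -138 bp from the F44E5.4 5' end and -213 bp from the F44E5.5 5' end. In replicate 2's list it was at 11759492, -181 bp and -170 bp from these ends and 5.5 bp from the midpoint between them. The replicates' summits differed by 43 bp, against a median of 14 bp over the 890 peaks, and 14.4% of those peaks had a larger difference. Which of the pair's 5' ends is nearer therefore depends on the replicate.

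A gene was called occupied if its 5' end had a summit no more than 250 bp away. By this rule 2 of the 7 family genes were occupied, F44E5.4 and F44E5.5, against 2.48% of all protein-coding genes (496 of 19973). Replicate 1's own list gave the same 2 genes, against 1.22% of all genes, and replicate 2's own list the same 2, against 1.54%. These 2 genes share 1 peak, so they are 1 observation and not 2. Within 500 bp hsp-1 joined them, giving 3 of 7 against 4.26% of all genes, and within 1000 bp hsp-4 too, giving 4 of 7 against 6.52%. Within 100 bp none of the 7 was occupied, while 0.861% of all genes were. Since the pair's peak is what chose these genes, nothing is read from these counts.

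**Figure D1:**
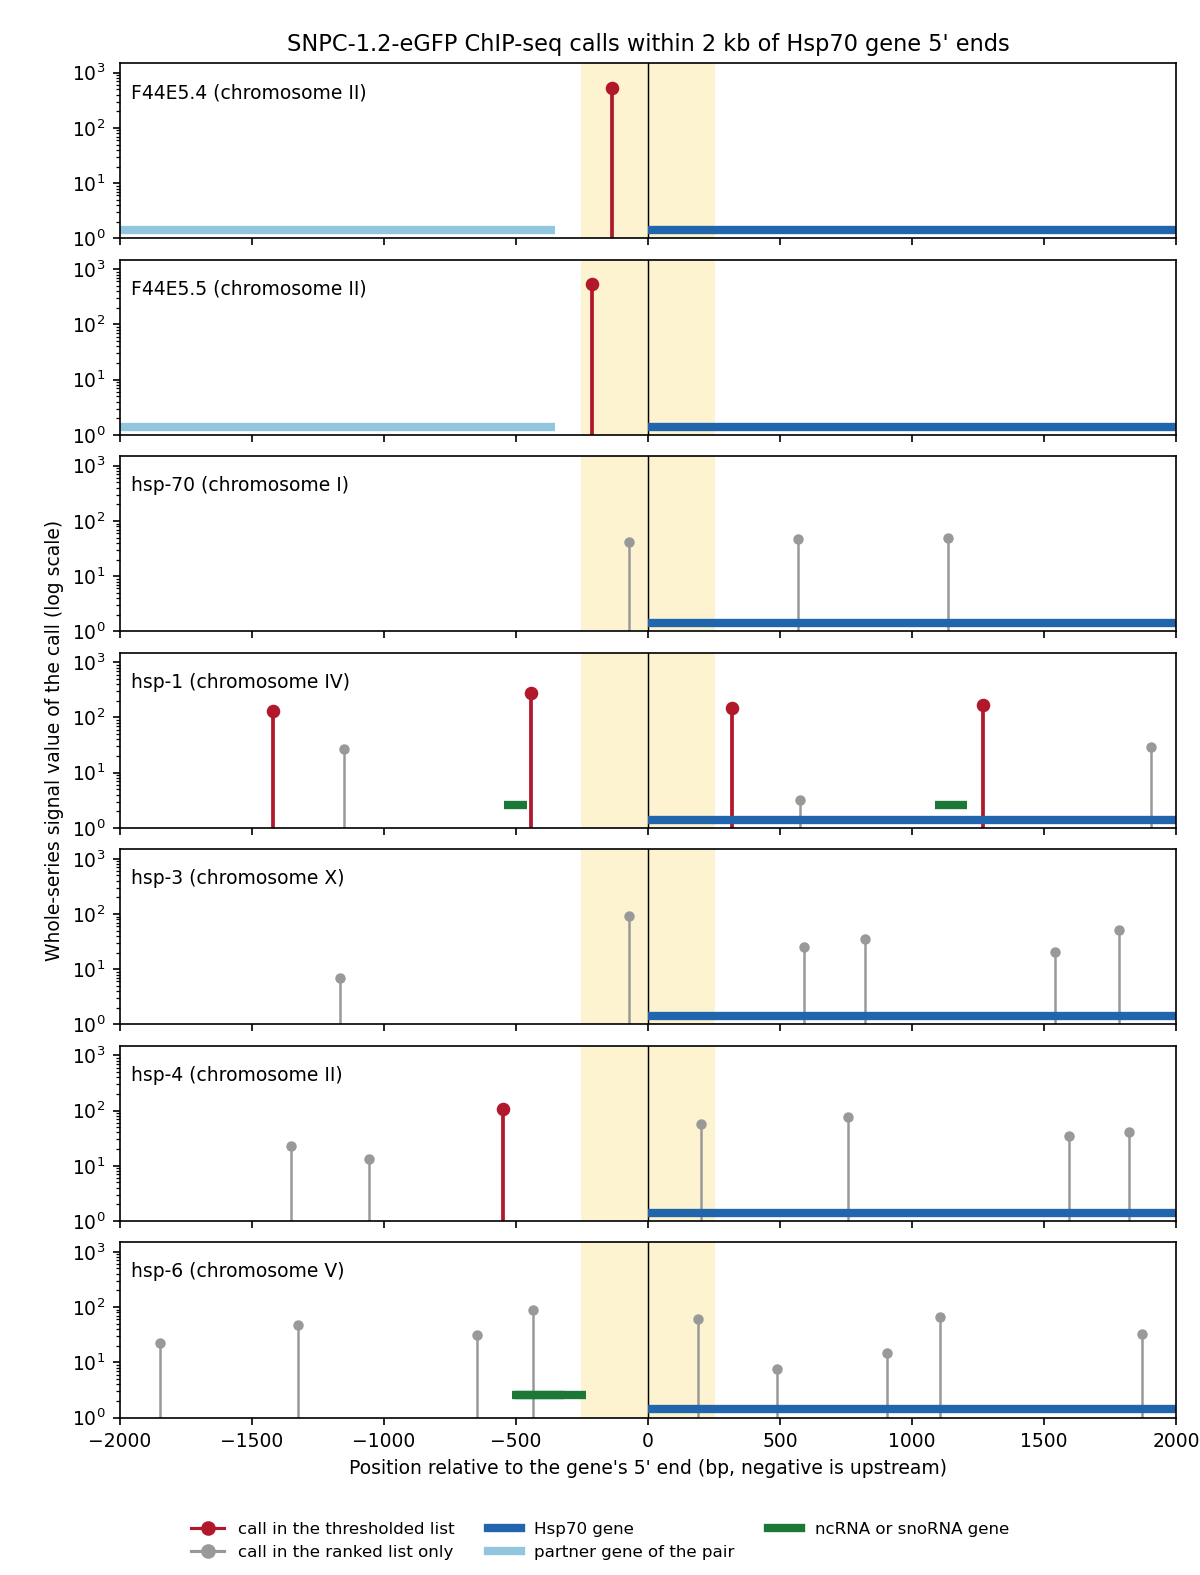
Signal value (log scale) of every whole-series call within 2 kb of each Hsp70 gene's 5' end, by position of the summit (bp, negative upstream), with red for calls in the thresholded list, grey for calls in the ranked list only and yellow for 250 bp either side of the 5' end. F44E5.4 and F44E5.5 have the single call of 539, hsp-1 has 4 red calls from 132 to 283, hsp-4 has 1 at 106, and the remaining genes have grey calls only.

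Neighbouring ranks showed what kinds of gene had signal of the same size. Immediately above the pair were a peak of 548 at the snoRNA gene T03F7.8 (294 in replicate 1 and 255 in replicate 2) and a peak of 547 at rpr-1, the RNase P RNA gene (258 and 278). Immediately below were a peak of 535 at the snRNA gene smy-11 (223 and 312) and a peak of 534 at the tRNA gene WBGene00014559 (235 and 300). All 4 neighbours thus had a short non-coding RNA gene as the nearest 5' end, with the summit at -44 to 33 bp from it, whereas no non-coding RNA 5' end lay within 2 kb of the 5' end of F44E5.4 or F44E5.5. Among the 456 peaks with a protein-coding 5' end within 250 bp, the pair's peak ranked 7. Among the 389 of these that were farther than 250 bp from every non-coding RNA 5' end it ranked 6, and it ranked 1 of the 247 of those outside chromosome IV. It was also the highest of the 288 peaks on chromosome II.

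Other head-to-head pairs gave a second comparison. Of 1745 pairs of protein-coding genes with 5' ends at most 1000 bp apart, 139 (7.97%) had a summit between the 5' ends, and F44E5.4 and F44E5.5 are 1 of them. Their signal of 539 ranked 2 of these 139, whose median was 138. With 5' ends allowed up to 2000 bp apart it ranked 6 of 195, so the rank depends on this distance. The highest was the pair of rpl-20, a ribosomal protein gene, and Y17G9B.5, with 665 (273 in replicate 1 and 402 in replicate 2). Next after the Hsp70 pair came rpl-15 and K11H12.8 with 446 (247 and 205), which has the snoRNA gene K11H12.13 nearby. The pairs cogc-2 with klp-18 (441; 169 and 239) and set-26 with tsr-2 (396; 180 and 217) followed. These 4 other pairs are all on chromosome IV.

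The pair's genes are near-identical inverted copies, so most sequence within them does not tell them apart. The arms of the inverted repeat ran from 11757079 to 11759416 (2338 bases) on the F44E5.4 side and from 11759543 to 11761884 (2342 bases) on the F44E5.5 side, with 126 bases between them. Aligned, 2332 of 2337 bases (99.8%) were identical, with 6 gap positions and a longest identical run of 2209 bases. The coding sequences of 1935 bases were identical throughout. Against the coding sequence of either, identity was 80.6% in hsp-70, 67.7% in hsp-1, 64.5% in hsp-3 and in hsp-4, and 62.3% in hsp-6. The next most alike were the BiP genes hsp-3 and hsp-4, at 77.7%.

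Judged by words of 50 bases, the peak nevertheless stood on sequence that occurs once in the genome. Of the 50-base words within 250 bp of the 5' end, counted on both strands, 206 of 452 (45.6%) were unique at F44E5.4 and 196 of 452 (43.4%) at F44E5.5. At the median protein-coding gene 100% were unique. Within the gene records themselves 1.86% of the words of F44E5.4 and 2.09% of those of F44E5.5 were unique. Every repeated word near the 5' ends had its other copies within the pair (246 of 246 at F44E5.4 and 256 of 256 at F44E5.5), and none had a copy in hsp-70. In the peak interval all 245 of these words were unique, whereas with 36-base words 237 of 259 (91.5%) were. The summits of both replicates lay in the 126-base stretch between the arms, which supplied 126 of the peak's bases, with 106 from the F44E5.4 arm and 62 from the F44E5.5 arm. Most reads that fall wholly inside the genes cannot be assigned to one of them by sequence. How the authors' alignment placed such reads is not given in the labels, so a missing call inside either gene is not a measure of occupancy.

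Repeated sequence was uncommon among the occupied genes. Of the 531 protein-coding genes (2.66%) with under 50% unique words at the 5' end, 4 were occupied (0.753%), and F44E5.4 and F44E5.5 were 2 of those 4. Among the other 19442 genes 492 (2.53%) were occupied. How reads from repeated sequence were placed is not given, and its part in this difference was not tested. At the other family genes the 5' ends were unique at 96.7% of words for hsp-1 and 100% for hsp-70, hsp-3, hsp-4 and hsp-6.

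**Figure D2:**
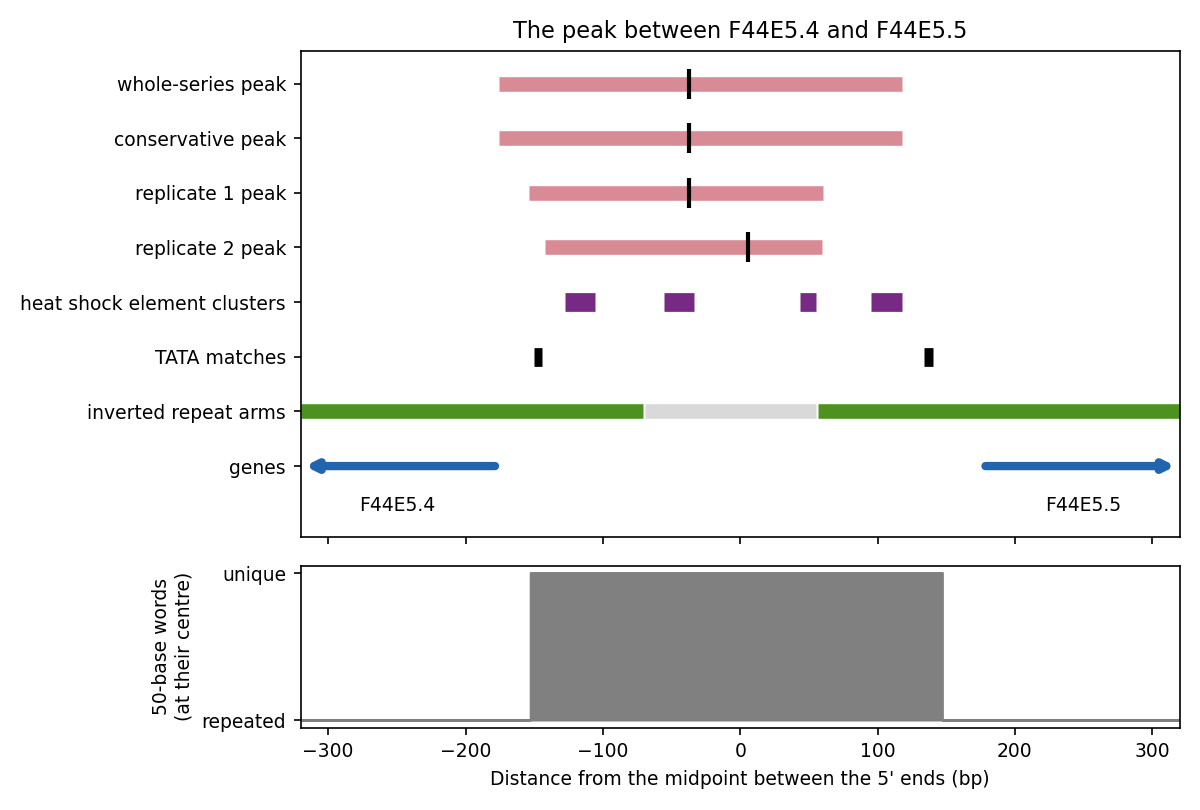
The region between F44E5.4 and F44E5.5, by distance from the midpoint of their 5' ends (bp), with peak intervals as red bars, summits as black ticks, heat shock element clusters in purple, TATAAA matches in black, the inverted repeat arms in green with the stretch between them in grey, and the genes as arrows; the lower panel shows which 50-base words occur once in the genome. The summits of all 4 lists lie between the arms, where every word is unique, and 1 of the 4 clusters holds the summit of the whole-series, conservative and replicate 1 lists.

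The 293 bases of the peak held many heat shock elements. Two-unit elements were counted as matches of GAANNTTC or TTCNNGAA, each of which reads the same on both strands, and overlapping matches were counted separately. There were 7 of each, 14 in all, and 10 three-unit elements, which overlap them. Of the 293 bases upstream of each of 19973 protein-coding genes, 31.3% held a two-unit and 1.88% a three-unit element, and 4 genes (0.02%) had 14 or more two-unit matches: ZC262.7 with 29, F55C9.5 with 15, and C53C11.4 and F44E5.4 with 14 each. The window was cut to the pair's peak, which ends on the last base of the last element, and 14 is the pair's own count. F44E5.4 is therefore among these genes by the choice of window and cutoff, and nothing is read from its place. In 293 bases centred on each of the 2829 summits, 28.9% held a two-unit and 3.25% a three-unit element, so these elements were not a general feature of the peaks. In that window the pair's peak held 12 two-unit matches, and 31 other peaks held more. A match is a description of letters and not evidence of binding by HSF-1, which was not measured.

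The 14 matches formed 4 clusters, visible as the capitals in the peak sequence above. The first, of 4 matches from 11759359 to 11759381, lay in the F44E5.4 arm and the last, of 4 from 11759582 to 11759604, in the F44E5.5 arm. Between the arms were a cluster of 4 from 11759431 to 11759453 and a cluster of 2 from 11759530 to 11759542. The whole-series and replicate 1 summits fell inside the cluster at 11759431 to 11759453. The replicate 2 summit lay 38 bp from the nearest cluster, so the replicates do not place the summit on the same element. The whole-series peak spanned all 4 clusters, whereas the replicates' own peaks ended at 11759547 and 11759546, before the last one.

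Of 3 further motifs counted, 2 had no match in the peak; no motif of snRNA promoters was counted. CTGTTTCA, the core of the motif upstream of worm piRNA genes, found in 10.6% of the windows around summits and 2.42% of upstream windows, had 0 matches, and GTTCGANNC, the core of the internal B box of tRNA genes, found in 13.3% of the windows around summits and 1.38% of upstream windows, also had 0. TATAAA had 1 match in the peak and 2 between the 5' ends, and is present in 26.7% of the windows around summits and 39% of upstream windows. All matches were counted on both strands. The peak sequence was 46.8% G or C, against a median of 39.9% over summit windows of the same length.

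The other heat-inducible gene, hsp-70 (WBGene00002026; minus strand, 9320325 to 9322519), had no peak in a thresholded list within 2 kb of its 5' end. It lies inside the gene record of uggt-2. In the ranked lists, which hold calls before any threshold on the IDR, its call nearest to the 5' end was at -72 bp with 40.9 in the whole-series list (IDR 0.523), 25 in replicate 1 and 3.07 in replicate 2. The replicates thus differed 8.14-fold there, and stronger calls of 46.7 at 569 bp and 49.1 at 1137 bp lay in its coding exons. Its nearest thresholded peak, with 184 in the whole-series list, 98.9 in replicate 1 and 84.3 in replicate 2, was at 2431 bp, beyond its 3' end and near a tRNA gene whose 5' end is at 2341 bp. Upstream of hsp-70, 293 bases held 3 two-unit elements, against 14 at F44E5.4 and 12 at F44E5.5. The same window held 2 at hsp-1, 2 at hsp-4, 0 at hsp-3 and 0 at hsp-6. The windows of F44E5.4 and F44E5.5 overlap, and the 12 matches of F44E5.5 are all among the 14 of F44E5.4.

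hsp-1 (WBGene00002005; IV, plus strand, 17278959 to 17281330), the constitutive cytosolic gene, had 4 thresholded peaks within 2 kb of its 5' end, a number reached by 26 genes (0.13%), but none within 250 bp. The highest lay at -445 bp with 283 in the whole-series list, 106 in replicate 1 and 176 in replicate 2 (141 ± 49.5, SD, n = 2). Its summit was 12 bp past the 3' end of F26D10.23, an annotated non-coding RNA of 90 bases upstream of hsp-1, while the replicates' own summits were at -27 and 19 bp from that end. The summit was therefore much nearer to this RNA gene than to the hsp-1 5' end. The second, at 1269 bp in a coding exon, had 167 (67.5 and 102) and lay 59 bp past the 3' end of the snoRNA gene F26D10.24, which is inside hsp-1.

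The remaining peaks of hsp-1 had less support from the replicates. At 318 bp, also in a coding exon, the whole-series signal was 146, with 102 in replicate 1 and 38.9 in replicate 2, and neither replicate's own thresholded list held it. At -1420 bp, inside the gene clec-196, it was 132, with 44.1 in replicate 1 and 86.5 in replicate 2, and only replicate 2's own list held it. The 4 peaks held 1 two-unit heat shock element in all, at 1269 bp, and no CTGTTTCA or GTTCGANNC. hsp-1 was also the only family gene with no ranked call within 250 bp of its 5' end.

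hsp-4 (WBGene00002008; II, minus strand, 7350112 to 7352645), the BiP gene induced by the unfolded protein response, had 1 thresholded peak within 2 kb, at -548 bp. Its signal was 106 in the whole-series list, 64.5 in replicate 1 and 55.4 in replicate 2 (60 ± 6.43, SD, n = 2), close to the whole-series median of 107. Replicate 1's own thresholded list held it, with the summit at -596 bp, and replicate 2's did not. Weaker ranked calls lay in its coding exons, with 56.1 at 202 bp (39.8 and 19.5) and 77.2 at 757 bp (45.7 and 24.9). No other gene record lay at the summit, and the nearest other 5' end upstream was that of haf-2 at -3781 bp.

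hsp-3 (WBGene00002007; X, minus strand, 6089028 to 6092124), the other BiP gene, had no whole-series thresholded peak within 2 kb. Its highest ranked call was at -71 bp with 92.7 in the whole-series list and an IDR of 0.0853. The other ranked list of both replicates gave the same call an IDR of 0.626. Replicate 1 gave 77.4 there and replicate 2 gave 7.05, so the call was high in replicate 1 only and the replicates differed 11-fold. In replicate 1's own ranked list 117 protein-coding genes had a stronger call within 250 bp, and in replicate 2's 5724 genes did. The nearest whole-series thresholded peak was at -115735 bp and the nearest in replicate 2's own list at -115691 bp. The conservative list had one at 54325 bp with 96.7, and replicate 1's own list had a weak one at 3117 bp, just past the gene's 3' end, with 19.

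hsp-6 (WBGene00002010; V, minus strand, 4824124 to 4826760), the mitochondrial Hsp70 gene, had its highest call within 2 kb at -434 bp, with 86.8 in the whole-series list, 43.2 in replicate 1 and 31.9 in replicate 2. The IDR of 0.0344 is above the limit of 0.01 of the thresholded lists. This summit lay inside the non-coding RNA genes C37H5.15 and C37H5.16, which run on opposite strands. A weaker call in a coding exon at 190 bp had 61.3 in the whole-series list and 25.1 in replicate 1, with no replicate 2 summit within 100 bp of it. The whole-series thresholded peak nearest to its 5' end was at 2413 bp, in its 3' UTR, with 83. Replicate 1's own thresholded list held a peak there, at 2393 bp with 54.6, whereas the nearest peaks of replicate 2's own list and of the conservative list were at 24559 bp and 24633 bp.

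**Figure D3:**
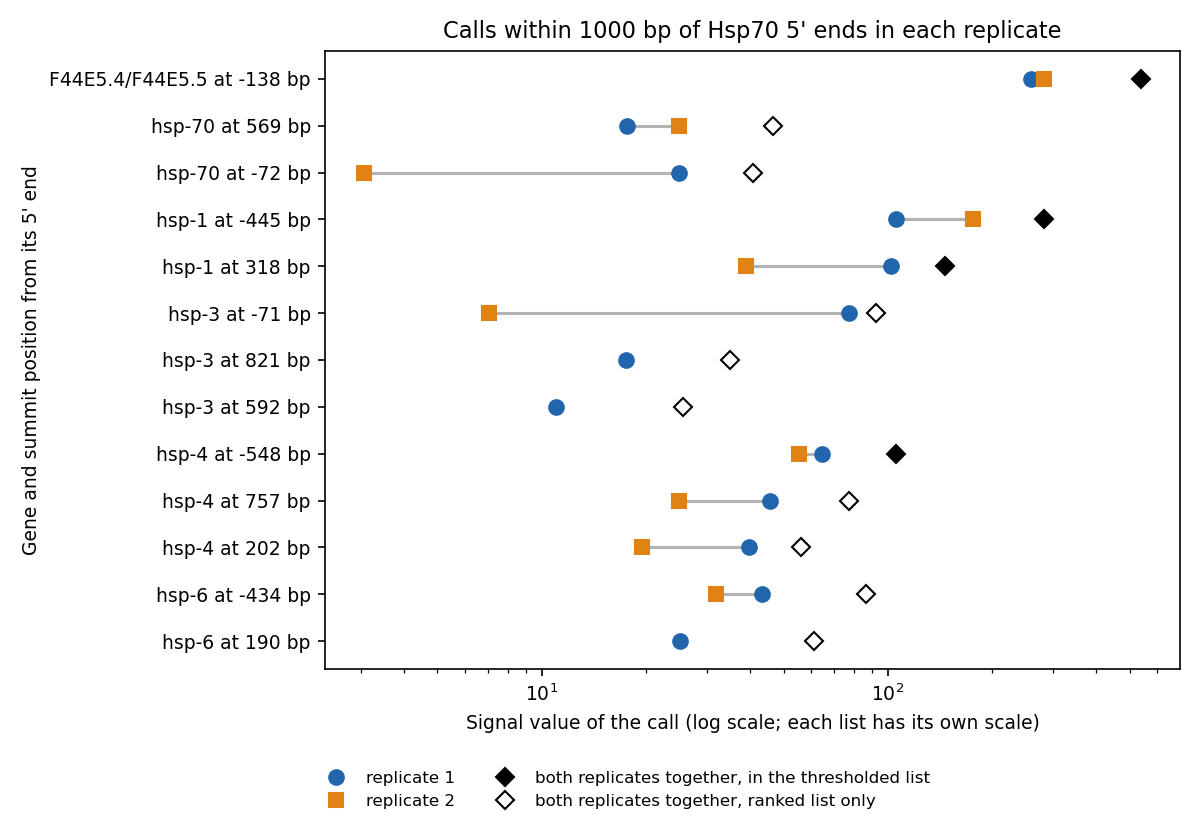
Signal values (log scale) of the calls within 1000 bp of each Hsp70 5' end in replicate 1 (circles), replicate 2 (squares) and the whole-series list (diamonds, filled where thresholded), taken from up to 4 of the highest whole-series calls of each gene within 2 kb, with replicate calls matched within 100 bp of the summit. The pair's replicates nearly coincide at 259 and 282, whereas the calls at -72 bp of hsp-70 and -71 bp of hsp-3 differ 8.14-fold and 11-fold.

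In the ranked lists, which also hold calls below the threshold, most family genes had a call near the 5' end. Within 250 bp, 6 of the 7 had a ranked call in the whole-series list, all but hsp-1, against 35.1% of protein-coding genes (7020 of 19973). F44E5.4 and F44E5.5 share 1 call, which is in the thresholded list. The calls of hsp-3, hsp-6, hsp-4 and hsp-70 are not, with IDRs of 0.0853, 0.471, 0.0531 and 0.523 in this ranked list. The other ranked list of both replicates gave the same calls 0.626, 0.0774, 0.37 and 0.783. The order of these IDRs therefore depends on the list. Since summits and signal values selected these genes, nothing is read from this count. The strongest such call was 539 at F44E5.4 and F44E5.5, with 6 genes higher, then 92.7 at hsp-3, 61.3 at hsp-6, 56.1 at hsp-4 and 40.9 at hsp-70, against a median of 31.5 over the genes with a call. The shares of all protein-coding genes with a lower value were 98.1% for hsp-3, 95.2% for hsp-6, 94.1% for hsp-4 and 88.4% for hsp-70. The order of these 4 did not hold in the replicates. There the strongest call within 250 bp was 77.4 in replicate 1 and 7.05 in replicate 2 for hsp-3, 39.8 and 19.5 for hsp-4, 25.1 and 37.0 for hsp-6, and 25 and 15.1 for hsp-70. In each replicate the pair stood above all 4.

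**Figure D4:**
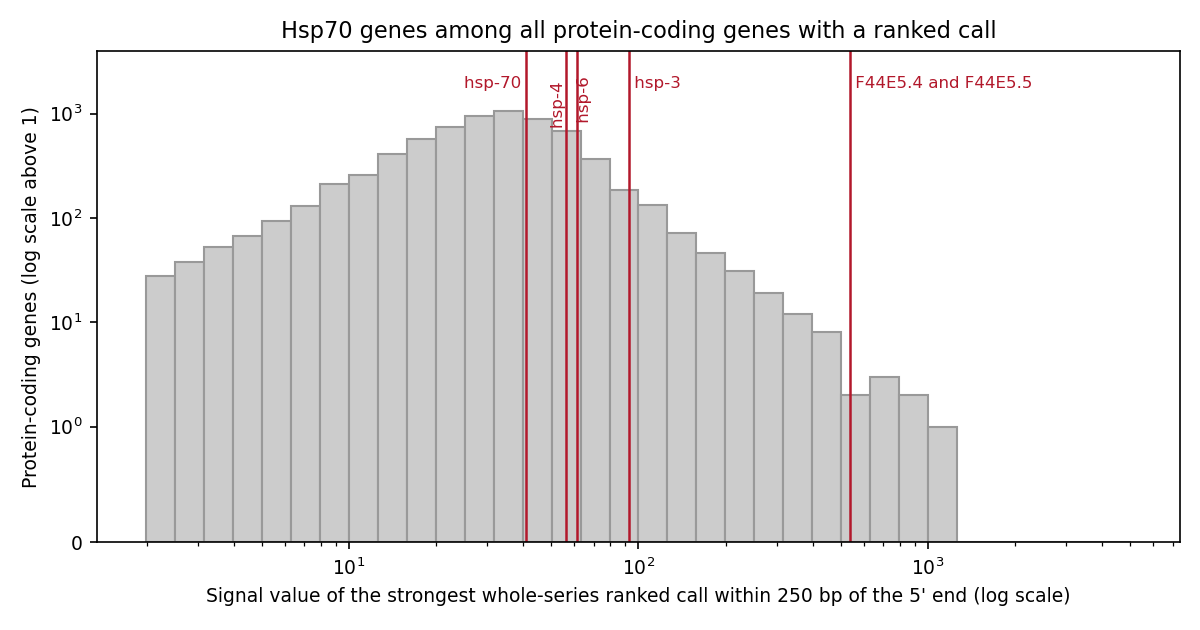
Number of protein-coding genes (log scale above 1) by the signal value of their strongest whole-series ranked call within 250 bp of the 5' end (log scale), over the 7020 genes with a call, with red lines at the Hsp70 genes. F44E5.4 and F44E5.5 at 539 stand in the far right tail with 6 genes higher, while hsp-70, hsp-4, hsp-6 and hsp-3 lie from 40.9 to 92.7; hsp-1 has no call and no line.

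The genes that work with Hsp70 were described through lists of 75 names, of which 71 were in the annotation. Of these 71, 8 were occupied within 250 bp in the whole-series list, against 2.48% of all protein-coding genes, and each replicate's own list gave 5. Their median strongest ranked call was 16.9, counting genes with no call as 0, against 0 over all protein-coding genes. A ranked call lay within 250 bp at 37 of the 71, against 35.1% of all protein-coding genes. These medians therefore reflect the share of genes with a call and do not compare the heights of calls. Of 29 J-domain genes 5 were occupied, and the replicate values given for them and the lists that follow are the highest thresholded peak within 1000 bp of the 5' end. The highest was dnj-13 with 256 (114 in replicate 1 and 151 in replicate 2), whose summit lay within dhgd-1 and the non-coding RNA gene F54D5.22. dnj-28 had 240 (131 and 111), dnj-9 had 156, dnj-11 had 134 (57.3 and 59.3) and dnj-29 had 65.3. The dnj-11 summit also lay within 250 bp of the 5' end of F38A5.2. dnj-9 was in replicate 1's own thresholded list at 96 and not in replicate 2's, and dnj-29 was in neither.

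Of the 2 nucleotide exchange factor genes on the list, bag-1 was occupied, at -190 bp with 212 (116 in replicate 1 and 96.3 in replicate 2). Of 11 regulators of the heat shock and unfolded protein responses, hsb-1, which encodes a protein that binds HSF-1, had 124 and xbp-1, which encodes a transcription factor of the unfolded protein response, had 84.9. Neither was in a replicate's own list. None of the 12 Hsp90 and chaperonin genes and none of the 12 small heat shock protein genes was occupied within 250 bp. Farther out, hsp-60, the mitochondrial chaperonin gene, had 314 at -623 bp (155 and 156), near the 5' end of Y22D7AL.10. hsp-12.3 had 392 at 925 bp (209 and 184), near the 5' ends of F38E11.11 and F38E11.24, and cct-8 had 251 at -448 bp (137 and 105), near that of Y55F3AR.2.

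Of the 5 other genes of the Hsp70 superfamily, none was occupied in the whole-series list. Each replicate's own list had 1 of the 5 occupied. hsp-110, which encodes an Hsp110 protein, had its nearest whole-series summit at -294 bp with 105, next to the 5' ends of rpn-3 and C30C11.14. Every whole-series peak within 1000 bp of a 5' end in these lists was below the 539 of the F44E5.4 and F44E5.5 peak, the highest being that of hsp-12.3 at 392.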

How the data were processed

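Anti-GFP ChIP-seq of 2 replicates was analysed from 8 deposited lists, 4 thresholded and 4 ranked, on ce11 per the labels. Per the notes deposited beside the lists, they came from filtered alignments and a control. Neither the aligner nor the peak caller is given in the sources used here. Per the file format, the deposited signal is the caller's value with no stated scale. The deposited score is, from the values, −125 times the log2 of the global IDR with a cap of 1000, and the ranked lists hold the −log10 of that IDR with a cap of 5. The authors' thresholded lists hold an IDR of at most 0.01. The whole-series ranked list was matched to its thresholded list by score (2837 of 2837 distinct values). The other ranked list of both replicates matched the conservative list in the same way (2761 of 2761). Depth is unknown.

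Summits were set against Ensembl 115 5' ends (WBcel235), within 250 bp. A replicate's call was matched to a whole-series summit within 100 bp. Sequence came from RefSeq's WBcel235 genome, with Python 3.11.15, numpy 2.4.6 and Biopython 1.88. Counting was checked on simulated data. The members and lists were chosen with earlier results of these data known, and no test was run. Named are all members, each occupied gene of the lists, the nearest 5' ends, the 5 highest head-to-head pairs and the 2 peaks on either side in rank; hsp-60, hsp-12.3, cct-8 and hsp-110 were named after their values were seen. Alternatives were the conservative list, an IDR limit of 0.05, other windows, overlap in place of summits, other transcripts, other word lengths and each replicate left out. Of the list names, dnj-6, hsp-16.11, hsp-16.49 and hsf-2 were not matched in the annotation.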

Additional observations from a re-analysis of the deposited data

How the results depend on the processing

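Of 44 alternatives over 8 results, 27 moved the result. The other 17 left it within 1.5 times of a count or within the spread set for a value. That spread was the SD of the replicates or, for unique words, a binomial interval, which is a yardstick only because the words overlap. No rule for a reversed result was set, so reversals were not assessed. Of the family genes, 0 were occupied within 100 bp and 4 within 1000 bp; every other alternative gave 2 or 3, and F44E5.4 and F44E5.5 were in both replicates' own lists. Of all protein-coding genes 0.861% were occupied within 100 bp, 4.26% within 500 bp, 6.52% within 1000 bp, 3.77% by any overlap of the peak, 2.9% at any transcript's 5' end and 4.36% with the ranked list at an IDR of at most 0.05. Leaving out a replicate gave 1.22% to 1.54%, below the 2.48% of the whole-series list by more than 1.5 times. The chaperone lists had 0 occupied genes within 100 bp, 13 within 500 bp and 20 within 1000 bp, and 5 without either replicate. The pair's peak was above 98.5% of the peaks near protein-coding 5' ends and 98.3% of the ranked calls at an IDR of at most 0.05, and above 93.7% to 94.5% when a replicate was left out. Its summit lay at -181 bp without replicate 1 and at -138 bp without replicate 2. With 36-base words 42.7% of the F44E5.4 window and 40.6% of the F44E5.5 window were unique. With 100-base words 51.2% of the F44E5.4 window and 48.8% of the F44E5.5 window were unique, and in the peak interval 100% of 50-base words; with 36-base words 91.5% of that interval was unique. Head-to-head pairs with a summit numbered 72 at most 500 bp apart, and 84 to 91 without a replicate; at most 2000 bp apart the Hsp70 pair ranked 6 of 195 in place of 2 of 139. No paired analysis was possible because there was 1 group. The cause of each move was not tested. With an unknown depth, a missing call is not an absence of binding.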

Other observations

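The density of heat shock elements at the pair was also looked for elsewhere in the peaks, a count made after the pair's sequence had been seen. In 293 bases centred on the summit, a window that cuts off the last matches of the pair's interval, the pair's own peak held 12 two-unit matches, and 31 of the 2829 nuclear peaks held 14 or more. In that window 31 other peaks held more matches than the pair's peak. The signal values of those with 14 or more ran from 76.2 to 776 with a median of 112, against 107 over the whole list. None was on chromosome II, and 1 had a protein-coding 5' end within 250 bp, ZC262.7, with 29 matches and a signal of 80.9. The highest of them, 776 with 36 matches, lay 1053 bp from the nearest protein-coding 5' end, that of Y41E3.13. The next were 652 with 34 matches, 3257 bp from fbxa-190, and 628 with 37 matches, 1848 bp from srv-14. These 3 peaks were higher than the 539 of the F44E5.4 and F44E5.5 peak, and the remaining 28 were lower.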
